A study of Mus musculus with 576 samples.

Results

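A list of 10 genes of epithelial adhesion and tight junctions was followed in single cells of the mouse dorsal pancreas at embryonic day 12.5. The genes were taken as a list of symbols, Epcam, Cdh1, Cldn3, Cldn4, Cldn6, Cldn7, Cldn9, Ocln, Esrp1 and Muc1, and all 10 were found among the 36658 genes of each of the 3 count tables. The cells were GFP+ cells sorted into 96-well plates from 3 mouse lines bred on C57BL/6J, with embryos of mixed sexes, and 2 plates per line (576 cells in all) were sequenced by Smart-seq2, a full-length method without molecular identifiers. In the Nkx2.5-Cre;mTmG and Nkx3.2-Cre;mTmG lines, Cre recombinase under the Nkx2.5 or the Nkx3.2 gene switches the R26 mTmG reporter from membrane tomato to membrane GFP, so that cells which expressed the driver gene and their descendants are marked. In the Prox1-EGFP line GFP is made by a transgene under Prox1 control, and Prox1 at this stage is best known as a gene of the pancreatic epithelium. No line carried a treatment. The labels name no embryo, so each line counts as 1 sample, cells are not replicates, and all differences below are given as sizes with counting intervals and values per plate, without a test. The library numbers of the Prox1 cells do not follow on from those of the Cre lines, so in that line a batch and the line itself cannot be told apart.

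Epithelial cells are held together by adherens junctions, in which the cadherin encoded by Cdh1 (E-cadherin) binds its like on the next cell and is tied to actin by catenins. Above them lie the tight junctions, where claudins, 4-pass membrane proteins, and occludin (Ocln) close the space between cells, and each claudin sets which ions may pass. Epcam encodes an adhesion glycoprotein of epithelial cells that is known to bind and stabilise claudin-7, Muc1 an apical mucin, and Esrp1 an RNA-binding protein that favours epithelial splice forms. In the embryonic pancreas the epithelium forms a branched tree, with Cpa1+ cells at the tips, Sox9+ cells in the trunk, and endocrine cells that arise through Neurog3 and leave the epithelial layer.

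Several of the 10 genes lie close together in the genome (GRCm38, GENCODE M21). Cldn6 (chr17:23679249-23682446, + strand) and Cldn9 (chr17:23682584-23684026, − strand) converge, with their last exons next to each other. Cldn4 (chr5:134945119-134946934, − strand) and Cldn3 (chr5:134986214-134987472, + strand) are 39279 bases apart. Epcam lies at chr17:87635979-87651129 (+ strand), Cdh1 at chr8:106603351-106670246 (+ strand), Cldn7 at chr11:69964779-69967885 (+ strand), Ocln at chr13:100496507-100552718 (− strand), Esrp1 at chr4:11331933-11386783 (− strand) and Muc1 at chr3:89229057-89233381 (+ strand). Cldn3 overlaps the antisense gene Wbscr25 and Esrp1 overlaps Gm26663, and because the sources used here do not state that strand was used in counting, reads of these partners cannot be told apart. Of the 31-base words of each gene's transcripts, at most 1.62% (Esrp1) occur in another gene, and 0.495% of those of Cldn9 occur in Cldn6.

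The sequences before the starts of 3 of the genes are shown. Cldn4 was chosen because, in the summed counts of endocrine cells, it went against the other claudins of the list. Cldn3 was chosen as its neighbour, and Epcam as among the most widely detected genes. RefSeq's table (GRCm38.p6) held 7 of the 10 genes with 9 start sites, and the 250 bases before each start were searched on both strands for CAGGTG, the E-box to which Snail and Zeb repressors of Cdh1 bind, for AACCNGTT, the letters bound by grainyhead-like factors, and for GGGCGG, the GC box of Sp factors. The motifs CAGGTG and GGGCGG are in capitals below, on either strand (CACCTG and CCGCCC on the other), each read 5′ to 3′ on the strand of the gene, from chr5:134985964-134986213 (Cldn3), chr5:134946935-134947184 (Cldn4) and chr17:87635729-87635978 (Epcam).
Cldn3: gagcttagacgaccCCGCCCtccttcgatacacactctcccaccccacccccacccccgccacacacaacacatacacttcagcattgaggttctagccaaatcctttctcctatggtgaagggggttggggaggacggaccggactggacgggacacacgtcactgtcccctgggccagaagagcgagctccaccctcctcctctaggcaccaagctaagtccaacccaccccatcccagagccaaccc
Cldn4: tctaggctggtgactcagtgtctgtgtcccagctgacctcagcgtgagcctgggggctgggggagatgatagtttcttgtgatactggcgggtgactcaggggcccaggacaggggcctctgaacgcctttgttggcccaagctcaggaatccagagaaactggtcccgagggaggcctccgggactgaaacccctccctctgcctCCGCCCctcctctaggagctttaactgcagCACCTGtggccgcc
Epcam: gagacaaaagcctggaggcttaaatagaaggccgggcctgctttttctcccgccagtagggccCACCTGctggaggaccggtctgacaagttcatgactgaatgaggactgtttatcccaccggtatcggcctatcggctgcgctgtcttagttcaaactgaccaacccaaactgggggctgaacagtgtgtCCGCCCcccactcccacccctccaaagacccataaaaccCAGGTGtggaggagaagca
The letters CAGGTG were in 6 of the 9 windows, against 17.2% of 32851 promoter windows of the same length. GGGCGG was in 8 of the 9, against 32.7% of all windows, and AACCNGTT was in 1, that of Muc1, against 1.79%. These matches describe the letters of the windows only. Cdh1, Cldn9 and Esrp1 were the genes of the list without a start site in RefSeq's table. No window of theirs was searched, so the counts say nothing of the Cdh1 promoter.

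Of the 576 cells, 549 passed the study's filter, and 19 of the Nkx2.5, 1 of the Nkx3.2 and 7 of the Prox1 cells did not. The passing cells had 224813 to 1512736 counts per cell and a median of 901156. Each cell was called epithelial where its mean log2(CPM + 1) over 10 pancreatic epithelial transcription factor genes exceeded that over 10 mesenchymal genes, where CPM is the count of a gene scaled to a common total per cell, and neither list holds any of the 10 junction genes. Epithelial cells were found in the Prox1 line alone, and were split into 19 endocrine cells (Chga at 100 CPM or more), 54 tip cells (else Cpa1 at 100 CPM or more) and 33 other epithelial cells. Among the remaining cells, 23 with Upk3b at 100 CPM or more (19 Nkx3.2, 4 Nkx2.5) were called mesothelial and 420 mesenchymal, 79 of them of the Prox1 line and the rest of the Cre lines. In a few of these cells markers of another type outscored the mesenchymal list, against which mesothelial cells were also set. These were endothelial markers in 1 and immune markers in 1 Prox1 mesenchymal cell, and blood markers in 2 Nkx3.2 mesenchymal cells. Endothelial markers did so in 1 Nkx3.2 mesothelial cell. These classes are ranges of measured values, and 3 cells lay within 1 log2 unit of the epithelial cut. Pdx1, the defining pancreatic factor, was at 121.6 CPM in epithelial cells. The collagen gene Col1a1 was at 1396 CPM in the mesenchymal and 1.10 CPM in the epithelial cells of the same line. The mesenchymal list, which with the epithelial list set the classes, summed to 4353 and 37.75 CPM. The epithelial list summed to 2.36 and 715.7 CPM. Single genes were less clear, with Col1a2 at 30.05 and Foxa1 at 0.884 CPM in epithelial cells, and Foxf1 at 2.37 CPM in mesenchymal cells. Markers of gut and stomach epithelium outscored the epithelial list in 0 epithelial cells, endothelial markers in 5, and the liver list in 44. The liver list summed to 10224 CPM in endocrine, 530.4 in tip and 385.2 CPM in other epithelial cells. Of its genes, Ttr, which islet cells also make, was at 9782, 358.3 and 293.5 CPM in these classes. Afp was at 371.5, 166.7 and 90.93 CPM.

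Over the epithelial cells as a whole Cldn6 was the highest of the 10 genes for its length, at 649.7 CPM per kb of its longest transcript, followed by Epcam at 369.7, Cldn3 at 184.3 and Cldn7 at 130.9 CPM per kb. Cldn4 (92.2), Cdh1 (74.04), Muc1 (57.97), Cldn9 (49.95), Ocln (40.3) and Esrp1 (18.8 CPM per kb) came after them. The order near the middle is not firm, since with the mean length of each gene's transcripts only Cldn6, Epcam, Cdh1 and Esrp1 kept their places. Between plates 8A and 8B, Cldn9 was at 45.7 and 54.5 CPM per kb and Muc1 at 63.2 and 52.3, so that these neighbours exchanged places from plate to plate.

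**Figure D1:**
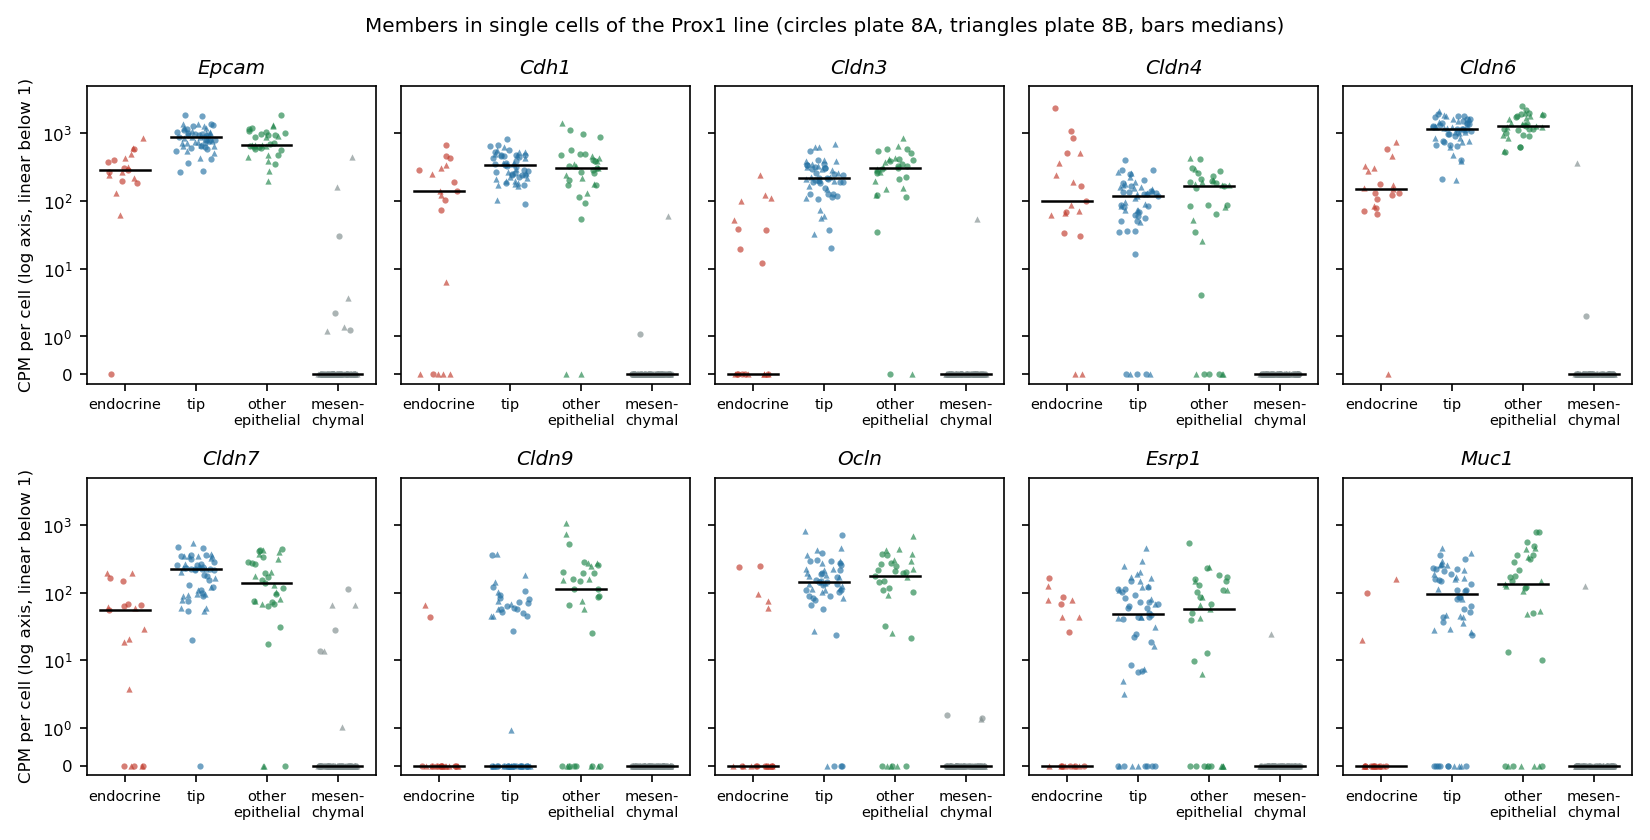
Level of each of the 10 genes in every passing cell of the Prox1 line, in CPM on an axis that is logarithmic above 1 and linear below, by class of cells. Circles are cells of plate 8A, triangles of plate 8B, and bars are medians. Epcam and Cldn6 were above 0 in all but 1 epithelial cell each, and the medians of all 10 genes were 0 in mesenchymal cells.

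The adhesion genes were nearly everywhere in the epithelium. Epcam had at least 1 count in all but 1 epithelial cell (99.1%, exact 95% binomial interval 94.9 to 99.98), and its level per cell ran from 0 over a median of 719.8 to 1873 CPM. Cdh1 was detected in 99 cells (93.4%), with a median of 289.9 and a highest value of 1397 CPM. All 7 cells at 0 for Cdh1 were endocrine (5) or other epithelial (2).

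The claudins fell into a broad and a patchy group. Cldn6, a claudin of embryonic epithelia, was detected in all but 1 cell with a median of 1139 CPM (0 to 2540). Cldn7, the partner of Epcam, was found in 91.5%, Cldn3 in 88.7% and Cldn4 in 87.7% of the cells, with medians of 151.9, 212.8 and 122.9 CPM. Cldn9 was detected in only 51 cells (48.1%, interval 38.3 to 58.03), with a median of 0 and a highest value of 1074 CPM. It was the only gene of the list under 50% over both plates, and on plate 8A alone it too reached 50%. Of the rest, Ocln was detected in 77.4%, Esrp1 in 72.6% and Muc1 in 68.9% of epithelial cells. After every cell was thinned to 100000 counts these shares were 76.4%, 66.98% and 66.98%, a few percentage points lower at most.

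A single epithelial cell had counts for 9 of the 10 genes in the median (2 to 10), and 29 cells (10 other epithelial and 19 tip) had counts for all 10. Tip cells had 7 to 10 genes and other epithelial cells 2 to 10, each with a median of 9, while endocrine cells had 2 to 8 with a median of 6. Mesenchymal cells of the same plates had 0 in the median, and 61 of the 79 had no count for any of the 10 genes. The endocrine range thus overlapped that of the other classes but none of the 19 cells reached all 10 genes.

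**Figure D2:**
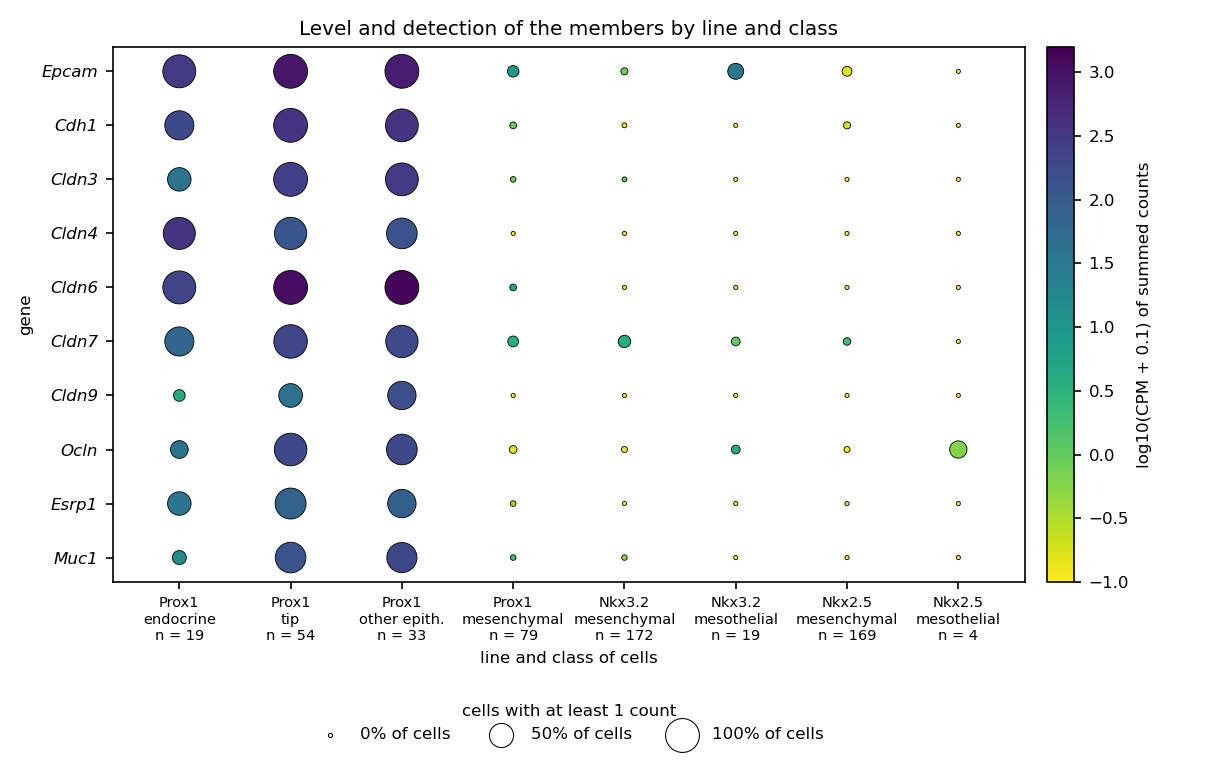
Each of the 10 genes (rows) in every line and class of cells (columns, with the number of cells). Colour is log10 of CPM of the summed counts plus 0.1, and the area of a circle follows the share of cells with at least 1 count. The large dark circles stand in the 3 epithelial classes. In endocrine cells the circles of Cldn9 (10.5% of cells), Muc1 (15.8%) and Ocln (26.3%) are small. The mesothelial cells of the Nkx3.2 line show Epcam in 21.1% of cells.

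All 10 genes were higher in epithelial than in mesenchymal cells of the Prox1 line by the rule used, at least 4-fold in the summed counts, higher on both plates, and at 5 CPM or more on one side. Of all 12418 genes that passed the 5 CPM minimum, 10.1% met the rule. The median log2 ratio of the 10 genes was 8.05, against 0.02 over all genes tested. In sums over cells, fewer cells with a transcript and less transcript per cell cannot be told apart, so the shares of cells above belong beside the ratios.

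Epcam was at 754.1 CPM in epithelial cells (exact 95% Poisson interval 748.5 to 759.9) and 9.05 CPM in mesenchymal cells (8.31 to 9.84), a ratio of 83.4 (76.6 to 90.8). The intervals cover counting error only, since reads without molecular identifiers are not independent molecules. Cdh1 was at 328.0 against 0.829 CPM, a ratio of 396. The plates gave 695 (8A) and 49.1 (8B) for Epcam and 8980 and 208.9 for Cdh1, so the size differed between plates while the direction did not.

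Cldn4 and Cldn9 were not seen in the mesenchyme. Neither had a single count in the 79 mesenchymal cells, which allows up to 3.80% of cells with a count, and against a floor of 3 counts over the group Cldn4 was at least 3368-fold and Cldn9 at least 1450-fold higher in epithelial cells. Cldn3 was at 232.0 against 0.729 CPM (318-fold), Cldn6 at 1054 against 4.91 CPM (215-fold) and Cldn7 at 174.7 against 3.65 CPM (47.9-fold, the lowest ratio of the 10). Ocln rested on 3 mesenchymal counts, with a ratio of 3284 (counting interval 1123 to 15925). Esrp1 was 220-fold (72.7 against 0.331 CPM) and Muc1 76.9-fold higher (130 against 1.69 CPM).

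Much of the mesenchymal signal came from 1 cell of plate 8B, whose epithelial score was only 0.59 log2 units under its mesenchymal score and which held the tip gene Cpa1 at 5160 CPM. It had Epcam at 449 CPM, Cldn6 at 366 and Muc1 at 126.6 CPM, and 7 of the 10 genes at 10 CPM or more. Without it the mesenchymal level was 3.09 CPM for Epcam and 0.0168 CPM (1 count each) for Cdh1 and Cldn6, and Cldn3, Esrp1 and Muc1 had no count left in the other 78 cells. Cldn7 was still at 2.82 CPM without it. The lowest summed level of the 10 genes in an epithelial cell was 330.8 CPM, and that cell was the only one of 420 mesenchymal cells to reach it (1147 CPM, followed by 195.4 CPM for the next highest).

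The mesenchymal cells of the Cre lines gave the level outside the epithelium, with few exceptions near 0. Cldn4 and Cldn9 had no count in any of the 420 mesenchymal or 23 mesothelial cells, and Cldn6 and Esrp1 had none outside the Prox1 line. In the Nkx2.5 line Epcam had single counts in 12 mesenchymal cells (7.10%), at most 1.24 CPM. In the Nkx3.2 line it was at 0.670 CPM over all mesenchymal cells, with a highest cell of 49.4 CPM on plate 7A. Another cell of plate 7A had Cldn3 at 123.5, Epcam at 23.1 and Cpa1 at 392.8 CPM.

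Cldn7 was the one claudin with a scattered mesenchymal signal. It was detected in 21 mesenchymal cells of the Nkx3.2 line (12.2%, 11 on plate 7A and 10 on plate 7B), in 7 of 79 of the Prox1 line (8.86%) and in 6 of the Nkx2.5 line (3.55%). Its summed level was 4.26 CPM in the Nkx3.2, 3.65 in the Prox1 and 1.85 CPM in the Nkx2.5 line, and the highest cell reached 195.4 CPM. These levels were low beside 174.7 CPM in epithelial cells, and in each line most mesenchymal cells were at 0.

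In mesothelial cells, the Upk3b+ covering layer of the organ, Epcam was the only one of the 10 genes to pass the 5 CPM minimum. It was at 28.4 CPM over the 23 cells against 1.71 CPM in the mesenchymal cells of all 3 lines, a ratio of 16.6 (14.8 to 18.6). Of the 661 mesenchymal Epcam counts, 546 were from the Prox1 line, which had no mesothelial cells. The single cell of plate 8B described above held 362 of them. Within the Nkx3.2 line Epcam was at 35.5 CPM in mesothelial and 0.670 CPM in mesenchymal cells. A level at least 4-fold higher was found for 6.15% of 11924 genes. The signal came from 4 of the 19 Nkx3.2 mesothelial cells, with 70.8, 105.8, 265.6 and 460.8 CPM, all of them on plate 7B and all with Upk3b between 254.1 and 1150 CPM. The 3 mesothelial cells of plate 7A and the 4 of the Nkx2.5 line had none, so the difference was seen on 1 plate. Cdh1, Cldn3, Cldn4, Cldn6, Cldn9, Esrp1 and Muc1 had no count in any mesothelial cell. Ocln reached 99.4 CPM in 1 cell of the Nkx3.2 line, and Cldn7 11.6 CPM in another.

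Within the epithelium, endocrine cells had lower levels of most of the list, and 1 claudin went the other way. Compared with other epithelial cells, 8 of the 10 genes were at least 2-fold lower on the summed counts and lower on both plates, and Cldn4 was at least 2-fold higher. Over 12526 genes, 23.3% were lower and 17.1% higher by the same rule, so many genes outside the list also differed between these classes. The median log2 ratio of the 10 genes was −1.88 against −0.15 over all genes. Endocrine cells had a median of 781278 counts and 8014 genes and other epithelial cells 774834 counts and 7245 genes, and the part of depth in the differences was not tested. The summed level of the 10 mesenchymal markers ran from 0 over a median of 70.03 to 479.0 CPM in endocrine cells and from 0 over 0.861 to 5.88 CPM in other epithelial cells, and their part in the differences was not tested. Nearly all of it was Col1a2 (132.4 CPM over the class, in 14 of the 19 cells), with Pdgfra at 5.52 CPM from 1 cell, and the other 8 were at or near 0 (Col3a1 at 0.0635, Pdgfrb at 0 CPM).

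**Figure D3:**
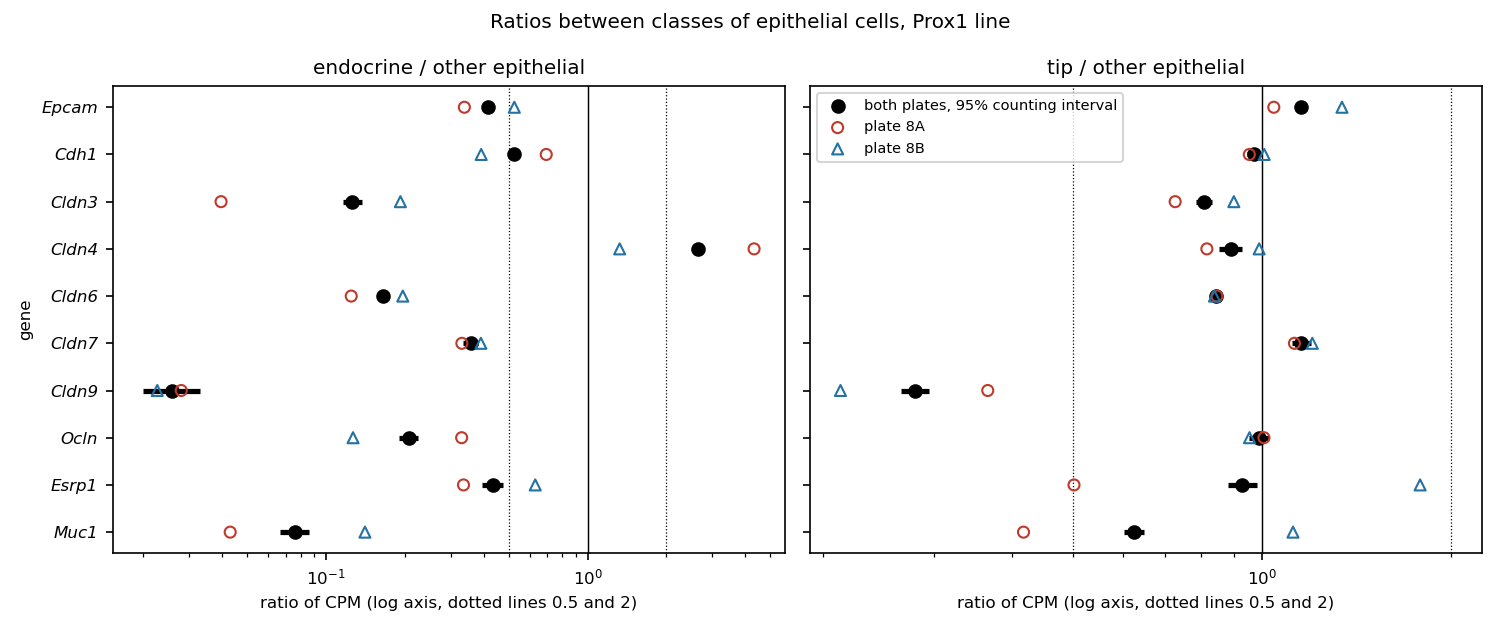
Ratio of CPM of endocrine (left) and tip (right) to other epithelial cells for each of the 10 genes, on logarithmic axes. Filled circles are both plates with the 95% counting interval, open circles plate 8A and triangles plate 8B, and dotted lines mark 0.5 and 2. In the left panel 9 of the 10 genes lie under 1 and Cldn4 above it, and in the right panel Cldn9 lies farthest from 1.

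Cldn9, Muc1, Cldn3, Cldn6 and Ocln differed most. Cldn9 was at 4.19 CPM (3.24 to 5.33) in endocrine and 161.9 CPM in other epithelial cells, 38.6-fold lower, with ratios of 0.0280 on plate 8A and 0.0226 on plate 8B. It was at 0 in 17 of the 19 endocrine cells. Muc1 was at 15.5 against 203.8 CPM, 13.2-fold lower (0.0430 and 0.141 on the plates), and was at 0 in 16 of the 19 cells. Cldn3 was at 39.4 against 312.0 CPM, 7.93-fold lower (0.0397 and 0.192), and Cldn6 at 226.0 against 1371 CPM, 6.07-fold lower (0.125 and 0.197). Each of the 19 endocrine cells lay below the median other epithelial cell for Cldn3, Cldn6 and Cldn9. Ocln was 4.82-fold lower (39.7 against 191.2 CPM) and at 0 in 14 cells.

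The genes of adhesion and splicing were closer to the other classes. Epcam was at 321.4 CPM in endocrine cells (312.6 to 330.3) and 770.7 CPM in other epithelial cells (760.1 to 781.5), 2.40-fold lower, with ratios of 0.338 on plate 8A and 0.525 on plate 8B. Per cell it ran from 0 over 287.1 to 846.5 CPM in endocrine cells and from 195.5 over 683.9 to 1873 CPM in other epithelial cells. The ranges overlapped, but 18 of the 19 endocrine cells lay below the median other epithelial cell. Cdh1 did not meet the 2-fold rule, at 190.3 against 364.7 CPM (ratio 0.522, 0.501 to 0.544; 0.695 and 0.392 on the plates). Cldn7 was 2.80-fold lower (64.4 against 180.5 CPM, 0.331 and 0.391), and Esrp1 2.30-fold lower (36.6 against 84.3 CPM, 0.335 and 0.631). On plate 8B alone neither Epcam nor Esrp1 reached 2-fold.

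Cldn4 was at 359.5 CPM (350.2 to 369.0) in endocrine cells and 135.9 CPM (131.5 to 140.5) in other epithelial cells, 2.65-fold higher (2.54 to 2.76). The ratio was 4.33 on plate 8A and 1.33 on plate 8B. Per endocrine cell Cldn4 ran from 0 over a median of 101.5 to 2381 CPM, and per other epithelial cell from 0 over 167.5 to 431.0 CPM, so that the median endocrine cell was lower while the sum was higher. The highest cell held 32.8% and the highest 3 cells 61.3% of the endocrine Cldn4 counts, and without the highest cell the ratio was 1.87, under the 2-fold rule. 5 of the 19 cells lay above every tip and other epithelial cell, and 11 lay below the median of other epithelial cells.

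The 3 highest Cldn4 values were in endocrine cells with little glucagon (Gcg) transcript. In the 5 endocrine cells with Gcg under 1000 CPM, Cldn4 was at 33.8, 67.1, 842, 1089 and 2381 CPM, and 871.4 CPM in the sum. In the 14 cells with Gcg at 1000 CPM or more it ran from 0 over 94.9 to 509.7 CPM, with 180.5 CPM in the sum and a ratio of 1.33 to other epithelial cells. 4 of these 5 cells were from plate 8A, and the split by Gcg was made after the values were seen.

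The makeup of the 5 claudins of the list differed accordingly between classes, with other claudins left out. Of their summed CPM per kb, Cldn6 made up 61.1% in tip, 59.7% in other epithelial and 33.2% in endocrine cells. Cldn4 made up 5.72%, 5.29% and 47.2%, and the last share rested largely on 3 cells with 61.3% of the endocrine Cldn4 counts. Per kb Cldn6 was the highest of the 5 in 52 of 54 tip cells and all 33 other epithelial cells but in 9 of 19 endocrine cells. Cldn4 led in 7 endocrine cells (5 on plate 8A, 2 on plate 8B) and in no tip or other epithelial cell.

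**Figure D4:**
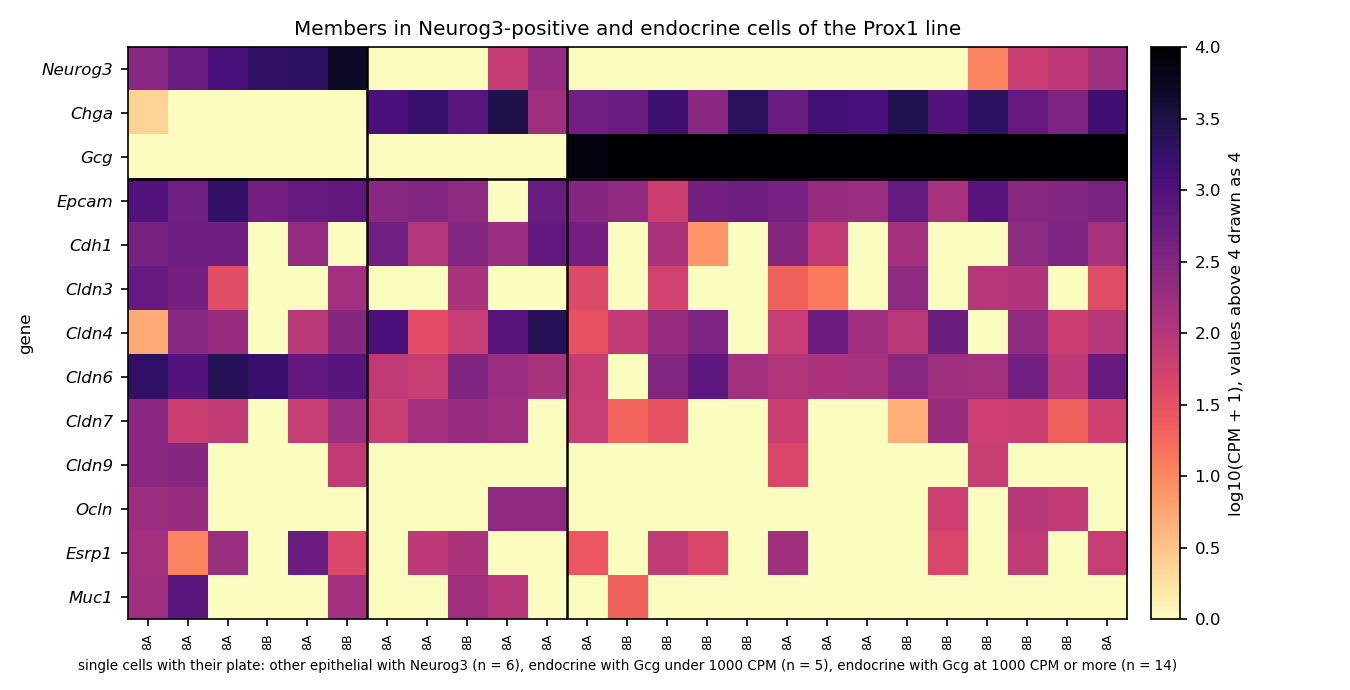
Neurog3, Chga, Gcg and the 10 genes (rows) in each of 25 cells (columns, labelled by plate), as log10(CPM + 1) with values above 4 drawn as 4. The blocks from left to right are 6 other epithelial cells with Neurog3 at 100 CPM or more, 5 endocrine cells with Gcg under 1000 CPM and 14 with more. Cldn9, Ocln and Muc1 are at 0 in most columns, and Epcam is above 0 in all but 1.

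6 of the other epithelial cells (4 on plate 8A, 2 on plate 8B) had Neurog3, the factor that starts endocrine differentiation, at 100 CPM or more. Pooled, they had Ocln at 58.3 CPM against 220.2 CPM in the other 27, and Epcam at 799.1 against 764.6 CPM. Cdh1, Cldn3, Cldn7, Cldn9 and Muc1 were also lower in them, and Cldn4 and Cldn6 were close. Esrp1 was higher, at 151.2 against 69.7 CPM. The 4 cells with Neurog3 at 1000 CPM or more were picked out after the values were seen. Ocln was at 0 in all of them, Cldn9 and Muc1 in 3 each, and Cldn3 and Cdh1 in 2 each. The same 4 cells had Epcam at 448 to 1873 CPM and Cldn6 at 639 to 2540 CPM. The 2 with less Neurog3 had Ocln at 176.5 and 196.8 CPM. With so few cells these are single values, and without the 6 cells 8 of the 10 genes were still lower in endocrine cells.

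Between tip and other epithelial cells 1 of the 10 genes met the 2-fold rule. This was Cldn9, at 45.3 CPM (43.4 to 47.3) in tip and 161.9 CPM in other epithelial cells, 3.57-fold lower, with ratios of 0.366 on plate 8A and 0.213 on plate 8B. By the same rule, 10.3% of 11634 genes were lower and 6.45% higher in tip cells. Cldn9 was detected in 26 of 54 tip cells (48.1%) and in 23 of 33 other epithelial cells (69.7%), and 49 of the 54 tip cells lay below the median of the other class. A single other epithelial cell held 19.1% of the Cldn9 counts, and without it the ratio was 0.336. With the gates for Chga and Cpa1 both at 1000 CPM, which moved endocrine as well as tip cells into the other epithelial class, the ratio was 0.701.

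For Epcam (888.5 against 770.7 CPM, ratio 1.15), Cdh1 (0.970), Cldn3 (0.808), Cldn4 (0.891), Cldn6 (0.842), Cldn7 (1.15) and Ocln (0.988) the ratios of tip to other epithelial cells stayed between 0.727 and 1.34 on both plates. Muc1 (127.4 against 203.8 CPM, 0.625) and Esrp1 (78.4 against 84.3 CPM, 0.930) differed between plates, with ratios of 0.417 and 1.12 for Muc1 and 0.502 and 1.78 for Esrp1. No direction can be read for these 2 genes.

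Genes of the same structures were taken from 7 further lists, counted by the same 4-fold rule between epithelial and mesenchymal cells. These counts, here and in the next paragraphs, are to be read beside the 10.1% of 12418 genes that were higher. The share of all genes lower by this rule was not counted. Of the other claudins, 7 of 31 reached 5 CPM and 5 were higher, among them Cldn23 (at least 378-fold) and Cldn8 (at least 347-fold), while Cldnd1 was at 0.893 and Cldn34c1 at 0.387 of the mesenchymal level. Of 19 tight junction scaffold, polarity and tricellular genes 9 were higher and 2 lower. Tjp3, a scaffold under the claudins, had a ratio of 2013 from 1 mesenchymal count (counting interval 361 to 79536), and Marveld2 (tricellulin) was at least 1688-fold higher. The scaffold Mpdz (0.200) and the adhesion molecule Jam2 (0.172) were higher in the mesenchyme.

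The catenin side of the adherens junction was shared by both cell types. Of 10 partners only Cdh3 (P-cadherin) was higher in epithelial cells (25.6-fold), with Afdn next at 3.84, and only Cdh2 (N-cadherin, 0.242) was lower, with Nectin1 at 0.809. Ctnnb1 (β-catenin) was at 677.2 and 613.7 CPM, a ratio of 1.10. Of 9 desmosome and hemidesmosome genes 6 were higher, as Pkp3 (2080-fold from 1 mesenchymal count, interval 373 to 82176) and Dsc2 (at least 1174-fold), Evpl was at 2.95 and Col17a1 was lower (0.114). All 11 of 12 keratin and surface genes that reached 5 CPM were higher, from Krt19 (at least 1468-fold) and Krt8 (239-fold) to Prss8 (26.9-fold) and Ezr (15.04-fold).

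Regulators of the junction genes went in opposite directions by kind. Of the epithelial splicing and transcription regulators 6 of the 7 that reached 5 CPM were higher, as Elf3 (at least 1196-fold), Ehf (289-fold) and Ovol2 (12.2-fold), and Klf5 was lower (0.215). All 5 repressors of Cdh1 were lower, with no share of all genes lower to set beside them. Zeb1 was at 0.0879 and Snai1 at 0.0696 of the mesenchymal level. Zeb2 was at 0.00884 (1.86 against 211.0 CPM), and Twist1 was without a count in epithelial cells (6.93 CPM in the mesenchyme).

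**Figure D5:**
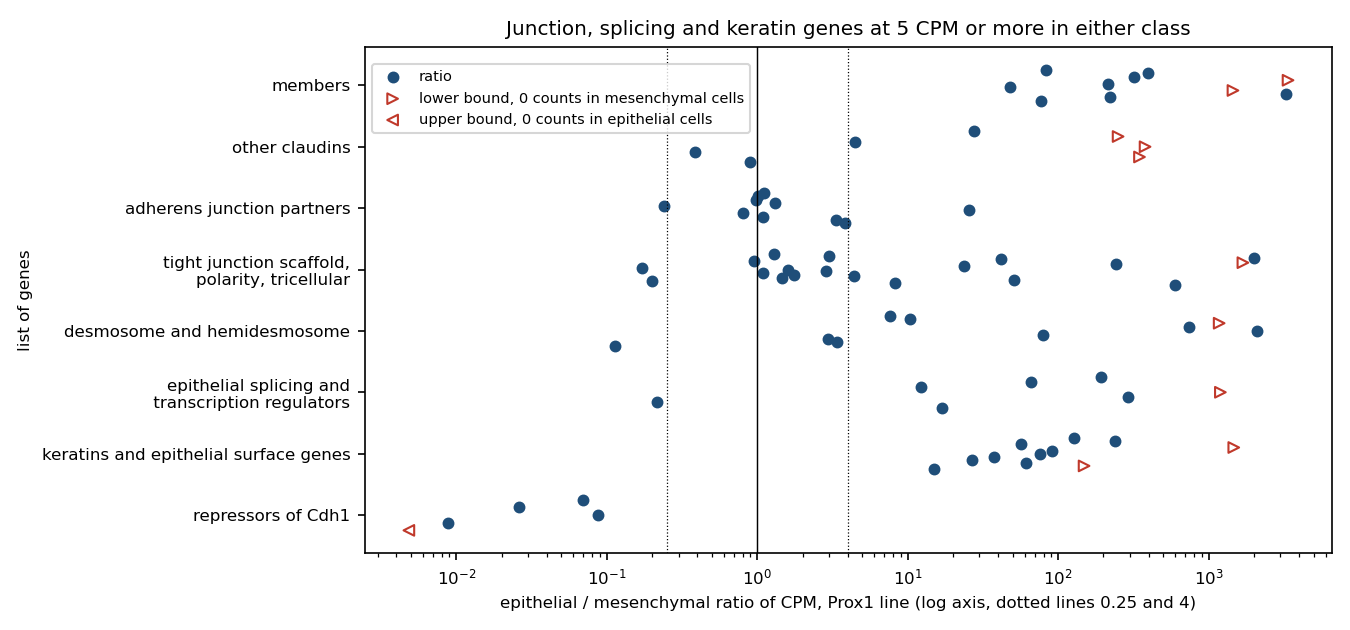
Ratio of epithelial to mesenchymal CPM in the Prox1 line (logarithmic axis) for the 10 genes and the 7 further lists, with 1 point per gene that reached 5 CPM in either class. Triangles are bounds against a floor of 3 counts, and dotted lines mark 0.25 and 4. The 10 genes lie from 47.9 upward, the adherens junction partners run from 0.242 to 25.6, and the repressors of Cdh1 lie under 0.1.

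Between endocrine and other epithelial cells, by the 2-fold rule, the counts are to be read beside the 23.3% of all genes that were lower and the 17.1% that were higher. Of the desmosome genes 6 of 8 were lower and 1 higher, of the scaffold and polarity genes 8 of 18 lower and 0 higher, and of the splicing and transcription regulators 5 of 7 lower and 1 higher. Grhl2, a grainyhead-like factor of epithelial genes, was at 0.399 CPM in endocrine and 67.8 CPM in other epithelial cells. Of the keratin and surface genes 6 of 11 were lower and 2 higher, of the adherens junction partners 4 of 10 lower and 2 higher, of the other claudins 3 of 7 lower and 2 higher, and of the repressors of Cdh1 1 of 3 lower and 1 higher. Among the other claudins Cldn11 was higher in endocrine cells, at 69.1 CPM against 0 counts, at least 601-fold.

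The genes most like the list were named by the Pearson correlation of their log2(CPM + 1) with the mean of the 10 genes over cells, as a description of cells that share plates and depth. Over all passing cells of the Prox1 line these were Krt8 (0.935), Ambp (0.935), Cgn (0.921), Habp2 (0.905) and Serpina1b (0.904). Over the epithelial cells alone they were Adamts1 (0.791), Spp1 (0.751), Habp2 (0.747), Sdc4 (0.733) and Sox9 (0.731). Within the epithelium, pairs of the 10 genes had mostly low Spearman correlations, and no share of positive pairs over other genes was taken. Of their 45 pairs 43 were positive, with a median of 0.227 and a range from −0.122 to 0.592. Without the endocrine cells 34 of the 45 were positive, with a median of 0.120 and a highest value of 0.492. By Pearson correlation with the mean of the other 9 over all epithelial cells, Cldn3 was highest (0.765) and Cldn4 lowest (0.0571). Over tip and other epithelial cells alone Cldn4 was at 0.251, and Esrp1 (−0.0435) and Epcam (0.0871) were the lowest.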

How the data were processed

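GFP+ single cells of the dorsal pancreas at embryonic day 12.5 were sequenced by Smart-seq2. The authors trimmed reads with Trim Galore 0.6.5, quantified them with kallisto on GRCm38 and summed transcripts to genes with tximport. The tables they deposited give each cell's estimated counts, unscaled, of which 36.1% of the nonzero values are not exactly whole. The annotation release they used is not given in the sources used here, and symbols, coordinates and transcript lengths were taken from GENCODE M21. Identifiers without a symbol held 0.605% of counts.

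The study's filter kept cells that had 1000 genes and 100000 counts or more and 30% mitochondrial counts or less, and no doublet caller was run. Counts were summed over the cells of a class and divided by the summed totals (CPM). Genes under 5 CPM on both sides were left out of comparisons. Intervals are exact Poisson (CPM), exact binomial (shares) and conditional binomial (ratios), at 95%. A gene was called at 4-fold (epithelial, mesothelial) or 2-fold (within the epithelium), in the same direction on both plates of the Prox1 line or, for mesothelial cells, in each line with at least 5 of them, with no condition on plates. The method was tested on simulated data with changes larger than the 2-fold and 4-fold rules, in genes well above the 5 CPM minimum. Calls near those limits were not covered. Python 3.11.15, pandas 2.3.3, scipy 1.17.1, scikit-learn 1.9.0 and, for TMM factors, edgeR 4.0.16 were used. The genes named are the 10 of the list, the 2 highest and 2 lowest ratios of each further list, and those most like the list. Other genes named (Ctnnb1, Grhl2, Cldn11) were chosen after their values were seen. The genes and lists were chosen with earlier results of these data known.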

Additional observations from a re-analysis of the deposited data

How the results depend on the processing

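Each count and ratio was recomputed with stricter or no filters on cells, other gates, other splits of epithelial from mesenchymal cells, the mean of the cells' own CPM, TMM factors, totals without mitochondrial genes, no 5 CPM minimum and each plate alone, and with settings chosen after seeing the data (endocrine cells against all others, and without single cells). All 10 genes were higher in epithelial cells in every setting run. Between 7 and 9 of the 10 were lower in endocrine cells, 7 on plate 8B alone, and Cldn4 was 1.33-fold (plate 8B, or cells with Gcg at 1000 CPM or more) to 4.33-fold higher, under 2-fold also with gates at 1000 CPM (1.91) and without the highest cell (1.87). Between tip and other epithelial cells 0 genes met the rule with gates at 1000 CPM and 2 (Cldn9 and Muc1) on plate 8A alone. In mesothelial cells 2 genes (Epcam and Ocln) were higher with no 5 CPM minimum and 0 on plate 7A alone, where the Epcam ratio was 0.766 (0 counts, set at the 3-count floor). With the mean transcript length 4 of the 10 genes kept their place in the order of levels. The causes of these shifts were not tested. Of the other recomputed single ratios and levels, 402 moved by less than their counting interval or spread and 59 by more, and no called value other than that Epcam ratio changed direction. No paired analysis was possible because no result comes from a test between replicates. With 19 endocrine and 23 mesothelial cells, a gene at 0 in all cells of the class allows a count in up to 15.8% and 13.04% of such cells, for counting error only, and sets no limit on expression below detection.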
